A study of Mus musculus with 12 samples.

Results

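The genes described here are 32 genes known for their use in astrocytes, the star-shaped glia of the brain. They were picked by symbol from a list of astrocyte markers and effectors. This rule uses no measured value, but the genes were chosen with earlier results of these data known. All 32 were found among the 37620 gene IDs of the count files. RNA was sequenced from neural stem cells of C57BL/6J mouse embryos of stage E14.5 (midgestation), kept in division by FGF-2 and EGF, with B-27 and no added treatment. There were 4 groups of 3 libraries: E12+/+ cells (E12wt), E12-/- cells (E12KO), E47+/+ cells (E47wt) and E47-/- cells (E47KO), and the wild-type cells of each line came from litter mates of that line's knockouts. Both proteins are splice forms of the gene Tcf3 and belong to the E proteins, transcription factors of the basic helix-loop-helix family. The deleted alleles are not described in the labels. Nor do these state if replicates stem from different embryos. The p-values thus rest on variation among libraries that may be technical, apart from a difference in sex within E47wt (below).

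Astrocytes clear glutamate and potassium from around synapses, seal blood vessels with end-feet rich in water channels, couple to one another through gap junctions and release lipids and proteins that act on neurons. In the developing brain they arise from radial glia, the stem cells that make neurons first and glia later, and radial glia already use part of the astrocyte programme, such as the glutamate transporter Slc1a3. Nuclear factor I proteins, Notch, BMP and JAK-STAT signals are known to open that programme. E proteins bind DNA at E-boxes, with the letters CANNTG, usually as partners of proneural factors, and Id proteins keep them off DNA.

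Levels are given as counts per 1000000 gene reads (CPM), scaled over all 12 libraries by the TMM method of edgeR. Only the floor and the values of Y-linked transcripts and Xist are CPM without that scaling. Values of a group follow replicate 1, 2 and 3. Libraries held 34515297 to 56835783 gene reads, so that a floor of 3 reads corresponded to 0.0528 to 0.0869 CPM, which covers counting error only. Tcf3 measured 75.9 to 82.4 CPM in E12wt, 72.9 to 101 in E12KO, 75.9 to 97.2 in E47wt and 106 to 117 in E47KO. These gene-level counts add up both splice forms, so they do not check the deletions. Y-linked transcripts summed to 195 to 251 CPM in E47wt replicate 2 and all 3 E47KO libraries and to at most 0.404 CPM in the others, so that in the E47 line genotype and sex were partly confounded. Xist, a transcript of female cells, measured 0.830 CPM in E47wt replicate 2 and 876 and 1126 CPM in replicates 1 and 3. E47wt replicate 2 therefore stemmed from a different embryo than replicates 1 and 3. Within the other groups sex did not differ, so it does not tell if their replicates share an embryo. E47KO replicate 2 stood apart on the first principal component (31.2% of the variance), at 73.6 against −30.5 to 14.7 in the other 11 libraries. It was also the highest of all 12 libraries for 29.0% of 15277 genes and the lowest for 30.1%. E47 fold changes of the astrocyte genes are therefore given with and without it (for 8 genes as a range).

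The cultures expressed most of the 32 genes, at very different levels. Mean levels over the 12 libraries were above 100 CPM for 13 genes, from 10 to 100 CPM for 8, from 1 to 10 CPM for 7 and below 1 CPM for 4. To compare genes, levels were divided by the joint length of all exons annotated for a gene. This length came from another genome build than the authors' and serves only for scale. It can exceed the length of the transcripts made, which lowers a gene's place. Per kb of exon, Sparcl1 (208 CPM per kb), Plpp3 (139.5), Cst3 (121), Slc1a3 (116) and Mlc1 (107) led the order. Glul (95.2), Acsbg1 (60.2), Atp1b2 (56.1), Aldoc (52.7) and Ttyh1 (39.2) followed. At the other end stood Aqp4 (0.806), Clu (0.545), Slc7a10 (0.270), Dio2 (0.151), Gfap (0.148) and Gjb6 (0.00359). The median of 14744 genes that passed the low-count filter and had a length was 5.08 CPM per kb, and 19 of the 32 genes lay above it. On this per-length scale Sparcl1 lay at percentile 99.0 of those genes and Gfap at percentile 7.14. Slc1a3 and Glul, known from radial glia as well as astrocytes, stood high in the order. Gfap and Aqp4, known as markers of later astrocytes, stood low. The order did not split the genes this way throughout. The end-foot gene Mlc1 lay at percentile 97.6 and Aldh1l1 at 79.7. Gja1, known from radial glia too, lay at 48.2, but its low place may stem from its long divisor (10257 bases, against 2801 for Mlc1).

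**Figure D1:**
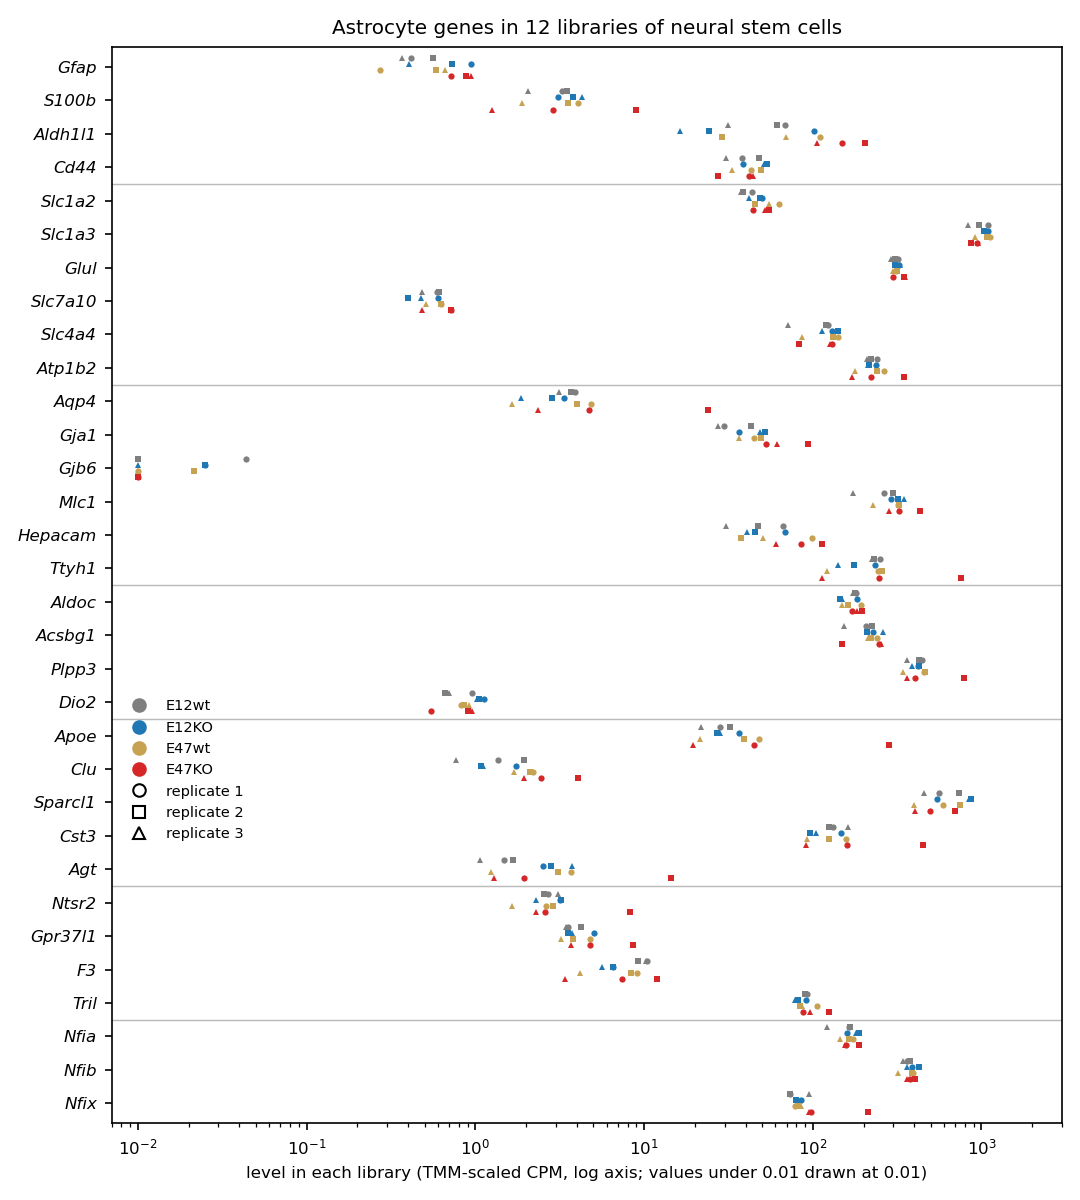
Level of each of the 32 astrocyte genes (rows, grouped by role) in each of the 12 libraries, as TMM-scaled CPM on a log axis; colour marks the group and shape the replicate. Gjb6 stays at or under 0.0437 CPM, and E47KO replicate 2 (red squares) lies to the right of the other libraries for Apoe, Aqp4, Agt, Ttyh1 and Cst3.

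Across the knockouts, no astrocyte gene was called by the main test, edgeR's quasi-likelihood test with Benjamini-Hochberg adjustment over all genes tested and a threshold of 0.05 on the adjusted p. That held in all 5 comparisons: E12KO against E12wt, E47KO against E47wt, the difference between these effects, their mean, and E47wt against E12wt. In each of them 31 genes were tested, since Gjb6 did not pass the low-count filter. The test called few genes of any kind: 0.0407% of 14755 genes in the E12 comparison (6 genes), 0.0134% of 14965 in the E47 comparison (2 genes), 0% of 15277 for the difference, 0.0262% of 15277 for the mean effect (4 genes) and 0% of 14892 between the wild types. DESeq2, run beside it, called 2 astrocyte genes in the E12 comparison, Agt and F3, and 0 in the other 4. It called 0.515% of all genes in the E12 comparison, 0.0668% in the E47 comparison, 0.00655% for the difference, 0.367% for the mean effect and 0.047% between the wild types. At an unadjusted p under 0.05 in edgeR there were 4 astrocyte genes in the E12 comparison (8.96% of all genes passed), 3 in the E47 comparison (2.19%), 0 for the difference (3.03%), 2 for the mean effect (5.75%) and 1 between the wild types (3.81%).

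The promoters of Agt, F3 and Gja1 are shown because DESeq2 called the first 2 in the E12 knockout and Gja1 had a low unadjusted p in both lines. Each is the 250 bases just before the gene's annotated start, written 5′ to 3′ on the gene's sense strand. They come from RefSeq on GRCm38.p6, a build other than the mm9 of the authors. Capitals mark the letters CANNTG. The Agt stretch is chr8:124569707-124569956 on the minus strand, the F3 stretch chr3:121723287-121723536 on the plus strand and the Gja1 stretch chr10:56377050-56377299 on the plus strand.
Agt: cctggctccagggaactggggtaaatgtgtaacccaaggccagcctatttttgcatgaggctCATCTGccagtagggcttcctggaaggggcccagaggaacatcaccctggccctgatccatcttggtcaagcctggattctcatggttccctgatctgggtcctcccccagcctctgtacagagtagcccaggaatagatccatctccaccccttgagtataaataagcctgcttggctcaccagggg
F3: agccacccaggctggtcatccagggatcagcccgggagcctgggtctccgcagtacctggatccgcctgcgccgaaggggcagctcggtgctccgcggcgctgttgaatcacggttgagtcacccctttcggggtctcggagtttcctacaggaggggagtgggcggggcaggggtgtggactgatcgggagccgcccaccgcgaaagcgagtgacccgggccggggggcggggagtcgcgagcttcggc
Gja1: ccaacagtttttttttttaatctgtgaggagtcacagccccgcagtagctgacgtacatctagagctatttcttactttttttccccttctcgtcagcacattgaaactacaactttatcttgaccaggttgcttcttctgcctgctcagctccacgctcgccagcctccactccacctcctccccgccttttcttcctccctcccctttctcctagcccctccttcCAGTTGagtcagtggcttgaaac
The Agt window holds 1 such hexamer, CATCTG, with its first base at −188 from the start, the Gja1 window holds 1, CAGTTG, at −23, and the F3 window holds none. RefSeq promoters were matched for 27 of the 32 genes, 34 promoters in all. CANNTG, which reads the same on both strands, occurred in 61.8% of the 34 and in 66.2% of 32851 mouse promoters of the same length. CAGCTG, a form of CANNTG that E proteins favour, occurred in 11.8% against 13.0%. CACCTG or its reverse complement CAGGTG, also forms of CANNTG, occurred in 23.5% against 17.2%. The half-site of nuclear factor I, TTGGC or its reverse complement GCCAA, occurred in 52.9% against 41.5%. A match says that the letters are there, not that a factor binds, and binding was not measured.

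Among the genes of astrocyte identity, Gfap, S100b, Aldh1l1 and Cd44, the filament gene Gfap had the lowest level. Gfap encodes the intermediate filament protein that fills mature and reactive astrocytes. It measured 0.416, 0.563 and 0.370 CPM in E12wt, 0.947, 0.725 and 0.404 in E12KO, 0.274, 0.581 and 0.660 in E47wt, and 0.716, 0.883 and 0.943 in E47KO. These levels rest on 10 to 53 reads per library. All 3 E47KO libraries lay above all 3 E47wt libraries, while in the E12 line replicate 3 of E12KO lay below replicate 1 of E12wt. The log2 fold change was 0.63 ± 0.36 (SE) in the E12 comparison and 0.73 ± 0.37 in the E47 comparison. Without E47KO replicate 2 the latter was 0.70 ± 0.41. Averaged over both lines it was 0.67 ± 0.26, with an unadjusted p of 0.0258 and an adjusted p of 0.836 in edgeR.

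Aldh1l1, the folate enzyme whose promoter is widely used to mark astrocytes, varied widely within every group. It measured 68.7, 61.1 and 31.4 CPM in E12wt, 102, 24.3 and 16.3 in E12KO, 111, 28.8 and 69.5 in E47wt, and 149, 204 and 107 in E47KO. In E12KO the highest library was 6.26 times the lowest, and in E47wt 3.84 times. The log2 fold change between E12KO and E12wt was −0.17 ± 0.61, and its sign depended on single libraries: it was −1.40 ± 0.33 without E12KO replicate 1, 0.14 ± 0.69 without E12KO replicate 2, 0.24 ± 0.55 without E12KO replicate 3 and 0.04 ± 0.70 without E12wt replicate 1. The E47 comparison gave 1.14 ± 0.46, with an unadjusted p of 0.0413 and an adjusted p of 0.971 in edgeR. The E47wt library with Y-linked transcripts was the lowest of its group. With sex as a covariate the E47 value was 2.41 ± 0.47, a value that sets the 3 E47KO libraries against 1 E47wt library. It was 0.88 ± 0.47 without E47KO replicate 2.

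S100b, which encodes a calcium-binding protein of astrocytes and early oligodendrocyte cells, measured 3.26, 3.50 and 2.06 CPM in E12wt, 3.09, 3.78 and 4.30 in E12KO, 4.05, 3.53 and 1.89 in E47wt, and 2.89, 9.00 and 1.26 in E47KO. Its E47KO libraries held both the highest and the lowest value of all 12. In the E12 comparison the log2 fold change was 0.35 ± 0.23, and in the E47 comparison it went from 0.47 ± 0.67 to −0.61 ± 0.44 without E47KO replicate 2. Cd44, the hyaluronan receptor found on astrocyte precursors, measured 38.0, 48.2 and 30.4 CPM in E12wt, 38.4, 53.3 and 51.1 in E12KO, 43.2, 49.1 and 33.3 in E47wt, and 41.9, 27.3 and 44.1 in E47KO. The groups overlapped in both lines, and E47KO replicate 2 was the lowest of all 12 libraries. Its log2 fold changes were 0.30 ± 0.18 and −0.15 ± 0.22 in the E12 and E47 comparisons.

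The 6 genes of glutamate and ion transport had log2 fold changes between −0.19 and 0.29 in both lines. Slc1a3 encodes GLAST, the glutamate transporter of radial glia and astrocytes, and was the gene with the highest CPM of the 32. It measured 1099, 963 and 837 CPM in E12wt, 1093, 1032 and 1032 in E12KO, 1120.1, 1081 and 914 in E47wt, and 946, 862 and 949.6 in E47KO. The groups overlapped in both lines, with log2 fold changes of 0.13 ± 0.10 in the E12 comparison and −0.18 ± 0.11 in the E47 comparison. Glul, which encodes the glutamine synthetase that turns captured glutamate into glutamine, measured 319.5, 306 and 292 CPM in E12wt, 323, 307 and 327 in E12KO, 312, 317 and 298 in E47wt, and 298, 345 and 351 in E47KO. Over all 12 libraries it stayed between 292 and 351 CPM, and its log2 fold changes in the E12 and E47 comparisons were 0.07 ± 0.06 and 0.10 ± 0.10.

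Slc1a2 encodes GLT-1, the main glutamate transporter of mature astrocytes. It measured 43.7, 38.8 and 37.6 CPM in E12wt, 49.9, 48.7 and 42.0 in E12KO, 63.0, 45.4 and 55.4 in E47wt, and 44.4, 55.2 and 52.3 in E47KO. In the E12 line 2 of 3 knockout libraries lay above all wild-type libraries, and in the E47 line the groups overlapped. Its log2 fold change for E12KO against E12wt was 0.23 ± 0.09, with an unadjusted p of 0.0357 and an adjusted p of 0.534 in edgeR, and in the E47 comparison it was −0.11 ± 0.16. All E47wt libraries lay above all E12wt libraries, with a log2 fold change of 0.44 ± 0.12, with an unadjusted p of 0.00741 and an adjusted p that rounds to 1.00 in edgeR. The 3 E12KO libraries (42.0 to 49.9 CPM) lay between the E12wt mean of 40.0 and the E47wt mean of 54.6 CPM.

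Slc4a4, the sodium bicarbonate cotransporter, measured 123, 120.1 and 71.3 CPM in E12wt, 129, 142 and 113 in E12KO, 141, 131 and 86.4 in E47wt, and 129, 82.8 and 127 in E47KO. Replicate 3 of E12wt was the lowest of all 12, and the log2 fold change of Slc4a4 in the E12 comparison was 0.29 ± 0.19 with that library and 0.07 ± 0.09 without it. In the E47 comparison it was −0.08 ± 0.23. Atp1b2, a beta subunit of the sodium pump, ranged from 171 to 346 CPM and gave log2 fold changes of −0.01 and 0.11. Slc7a10, a transporter of small neutral amino acids including D-serine, ranged from only 0.400 to 0.717 CPM and gave −0.19 and 0.11 in the E12 and E47 comparisons.

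Gja1 was the only astrocyte gene with an unadjusted p under 0.05 in edgeR in both knockout comparisons. Gja1 encodes connexin 43, the main gap junction protein of astrocytes and radial glia (ENSMUSG00000050953). It measured 29.7, 43.1 and 27.5 CPM in E12wt, 36.7, 52.1 and 48.7 in E12KO, 44.8, 49.1 and 36.4 in E47wt, and 52.7, 94.3 and 61.2 in E47KO. In the E47 line all knockout libraries lay above all wild-type libraries, and in the E12 line replicate 2 of E12wt lay above replicate 1 of E12KO. Log2 fold changes were 0.46 ± 0.19 in the E12 comparison (unadjusted p 0.0364, adjusted p 0.534 in edgeR) and 0.67 ± 0.23 in the E47 comparison (unadjusted p 0.0220, adjusted p 0.971). Averaged over both lines the value was 0.57 ± 0.17, with an unadjusted p of 0.00526 and an adjusted p of 0.675 in edgeR, and 0.43 ± 0.14 when E47KO replicate 2 was left out. Without E47KO replicate 2, which was the highest library, the E47 value was 0.39 ± 0.15. Without E12wt replicate 3, which was the lowest, the E12 value was 0.33 ± 0.18. The other connexin of astrocytes, Gjb6 (connexin 30), had 0 to 2 reads per library, at or under the floor in all 12, and no fold change is given for it.

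Aqp4, the water channel of astrocyte end-feet, measured 3.89, 3.67 and 3.12 CPM in E12wt, 3.36, 2.85 and 1.88 in E12KO, 4.87, 3.98 and 1.66 in E47wt, and 4.75, 23.9 and 2.35 in E47KO. E47KO replicate 2 lay at 7.10 times the median of the other 11 libraries, which spanned 1.66 to 4.87 CPM. In the E47 comparison the log2 fold change was 1.56 ± 0.84 with that library and 0.02 ± 0.48 without it. In the E12 comparison it was −0.40 ± 0.23. Mlc1, a membrane protein of end-feet, measured 266, 297 and 173 CPM in E12wt, 292, 318 and 347 in E12KO, 319, 324 and 229 in E47wt, and 325, 431 and 281 in E47KO. In the E12 line replicate 3 of E12wt was the lowest library, and the log2 fold change was 0.39 ± 0.17 with it and 0.18 ± 0.09 without it. The E47 value of Mlc1 was 0.25 ± 0.20, or 0.06 ± 0.16 without E47KO replicate 2.

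Ttyh1, a membrane protein of neural progenitors and astrocytes, measured 251, 229.6 and 225 CPM in E12wt, 235, 175 and 141 in E12KO, 245, 256 and 122 in E47wt, and 248, 760.1 and 114 in E47KO. The E47KO group again held both the highest and the lowest library of all 12, and its log2 fold change went from 0.85 ± 0.64 to −0.20 ± 0.39 without E47KO replicate 2. In the E12 comparison it was −0.35 ± 0.16. Hepacam, the adhesion protein that brings Mlc1 to cell contacts, ranged from 30.4 to 113 CPM, and its log2 fold changes were 0.11 ± 0.28 and 0.47 ± 0.38 in the E12 and E47 comparisons. Leaving out E12wt replicate 3 turned the E12 value to −0.14, and leaving out E12KO replicate 1 turned it to −0.15.

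**Figure D2:**
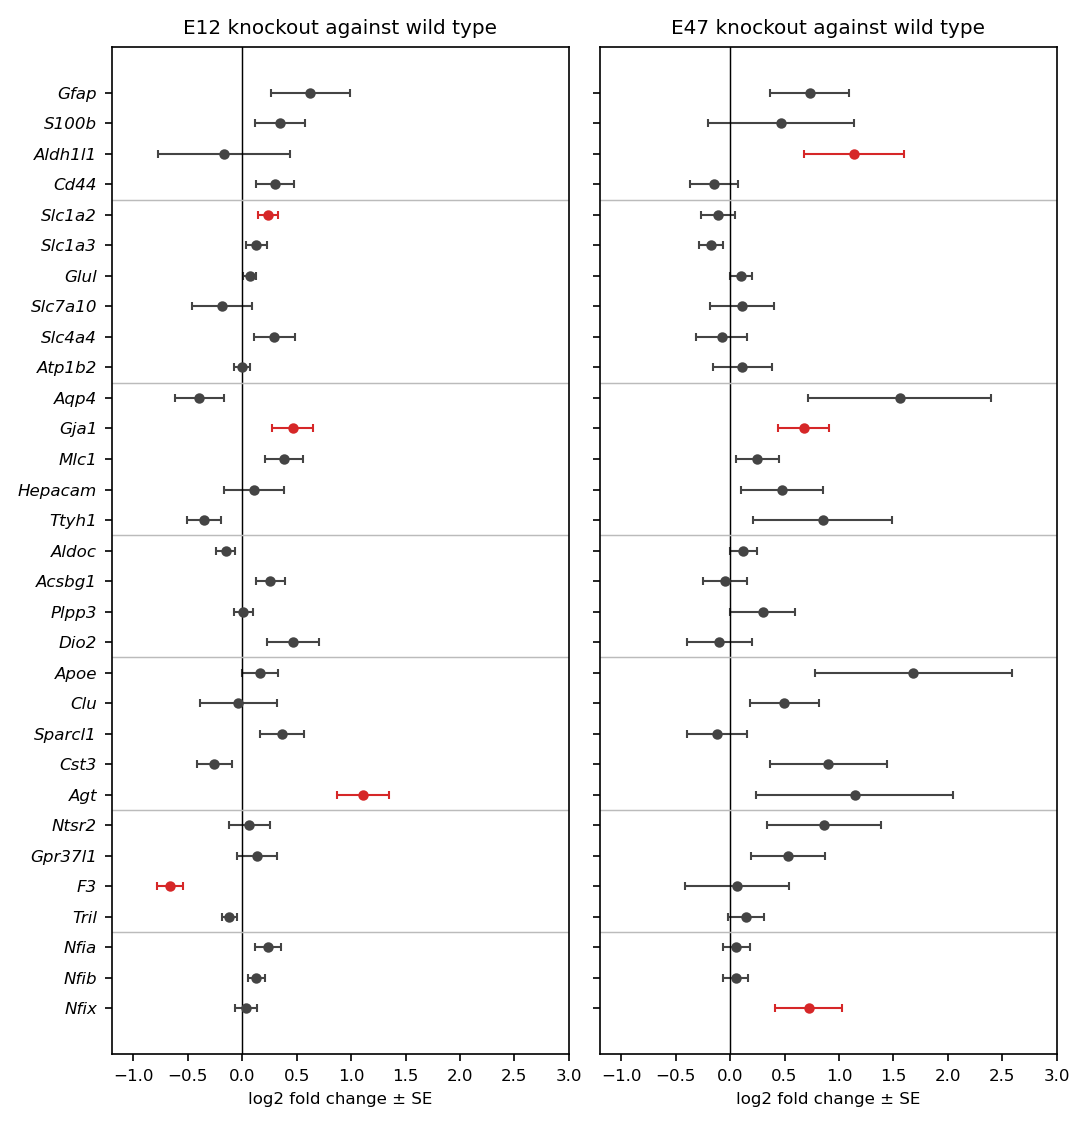
Fitted log2 fold change ± SE of the 31 tested astrocyte genes in the E12 knockout (left) and the E47 knockout (right), each against its own wild type, grouped by role; red marks an unadjusted p under 0.05 in edgeR. In the E12 knockout 4 genes are red (Agt, F3, Gja1, Slc1a2), in the E47 knockout 3 (Aldh1l1, Gja1, Nfix), and the wide bars of Apoe, Aqp4 and Agt on the right come with the single high library E47KO replicate 2.

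None of the 4 metabolic enzymes reached an unadjusted p under 0.05 in edgeR in any comparison. Plpp3, a lipid phosphate phosphatase at the surface of astrocytes and radial glia, measured 444, 424 and 364 CPM in E12wt, 422, 427 and 386 in E12KO, 458, 465 and 343 in E47wt, and 405, 788 and 363 in E47KO. Without E47KO replicate 2 its log2 fold change in the E47 comparison went from 0.30 ± 0.30 to −0.14 ± 0.14, and in the E12 comparison it was 0.01 ± 0.09. Acsbg1, a long-chain acyl-CoA synthetase, measured 207, 224 and 154 CPM in E12wt, 226, 210.3 and 259.9 in E12KO, 239, 222 and 211 in E47wt, and 247, 149 and 255 in E47KO. Here E47KO replicate 2 was the lowest of the 12 libraries rather than the highest, and the log2 fold changes were 0.26 ± 0.14 and −0.05 ± 0.20. Dio2, the deiodinase that makes active thyroid hormone for neurons, measured 0.962, 0.661 and 0.694 CPM in E12wt, 1.12, 1.05 and 1.02 in E12KO, 0.821, 0.861 and 0.915 in E47wt, and 0.549, 0.911 and 0.960 in E47KO. All E12KO libraries lay above all E12wt libraries, the nearest pair being 1.02 and 0.962 CPM, and the log2 fold change was 0.46 ± 0.24. In the E47 line the groups overlapped and it was −0.10 ± 0.30. Aldoc, the brain form of the glycolytic enzyme aldolase, ranged from 145 to 196 CPM and gave −0.15 ± 0.09 and 0.12 ± 0.12.

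Among the secreted proteins, Agt gave the largest fold change of all 31 tested astrocyte genes in the E12 knockout. Agt encodes angiotensinogen, the precursor of angiotensin peptides, made in the brain by astrocytes (ENSMUSG00000031980). It measured 1.49, 1.66 and 1.06 CPM in E12wt, 2.52, 2.80 and 3.75 in E12KO, 3.67, 3.08 and 1.23 in E47wt, and 1.93, 14.46 and 1.30 in E47KO. Each E12KO library lay above each E12wt library, at a mean of 3.02 ± 0.648 against 1.41 ± 0.308 CPM (SD, n = 3 libraries each). The log2 fold change was 1.11 ± 0.24. In edgeR its unadjusted p was 0.00131 and its adjusted p 0.418, whereas DESeq2 gave an adjusted p of 0.0262. In the authors' deposited table for this comparison the log2 fold change was 1.11 and the adjusted p 0.0365. Without E12wt replicate 3, the lowest library, the fold change was 0.94 ± 0.23 on the log2 scale. The E47wt libraries, without any deletion, spanned 1.23 to 3.67 CPM, nearly the whole range of the E12 line, and E47wt against E12wt gave 0.91 ± 0.40. In the E47 comparison the value turned with 1 library, from 1.14 ± 0.91 to −0.72 ± 0.46 without E47KO replicate 2. The difference between the knockout effects (E47 minus E12) was 0.04 ± 1.07, and −1.82 ± 0.55 without that library, with an adjusted p of 0.996 in edgeR against an unadjusted p of 0.00646.

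Apoe, the main lipid carrier that astrocytes release, showed the largest ratio of E47KO replicate 2 to the other libraries among the 31 tested genes. It measured 28.3, 32.4 and 21.7 CPM in E12wt, 36.5, 27.2 and 28.2 in E12KO, 48.1, 39.0 and 21.3 in E47wt, and 44.6, 284 and 19.5 in E47KO. That library lay at 10.03 times the median of the other 11. The log2 fold change of Apoe between E47KO and E47wt was 1.68 ± 0.90 with it and −0.17 ± 0.42 without it. In the E12 comparison it was 0.16 ± 0.16. Cst3, the protease inhibitor cystatin C, measured 132, 124 and 162 CPM in E12wt, 148, 96.4 and 104 in E12KO, 157, 124 and 93.1 in E47wt, and 159.7, 447 and 91.2 in E47KO, and its E47 value likewise went from 0.90 ± 0.54 to 0.01 ± 0.27. Its E12 value was −0.26 ± 0.16. Sparcl1, or hevin, which promotes synapse formation, measured 561, 734 and 459 CPM in E12wt, 544, 863 and 840.4 in E12KO, 593, 750.2 and 398 in E47wt, and 494, 700.4 and 404 in E47KO. The lowest and highest libraries of each group differed by 1.59 to 1.89 times, with log2 fold changes of 0.36 ± 0.21 and −0.12 ± 0.27. Clu, or clusterin, an extracellular chaperone abundant in adult astrocytes, ranged from 0.763 to 4.08 CPM and gave −0.04 ± 0.35 and 0.50 ± 0.32.

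**Figure D3:**
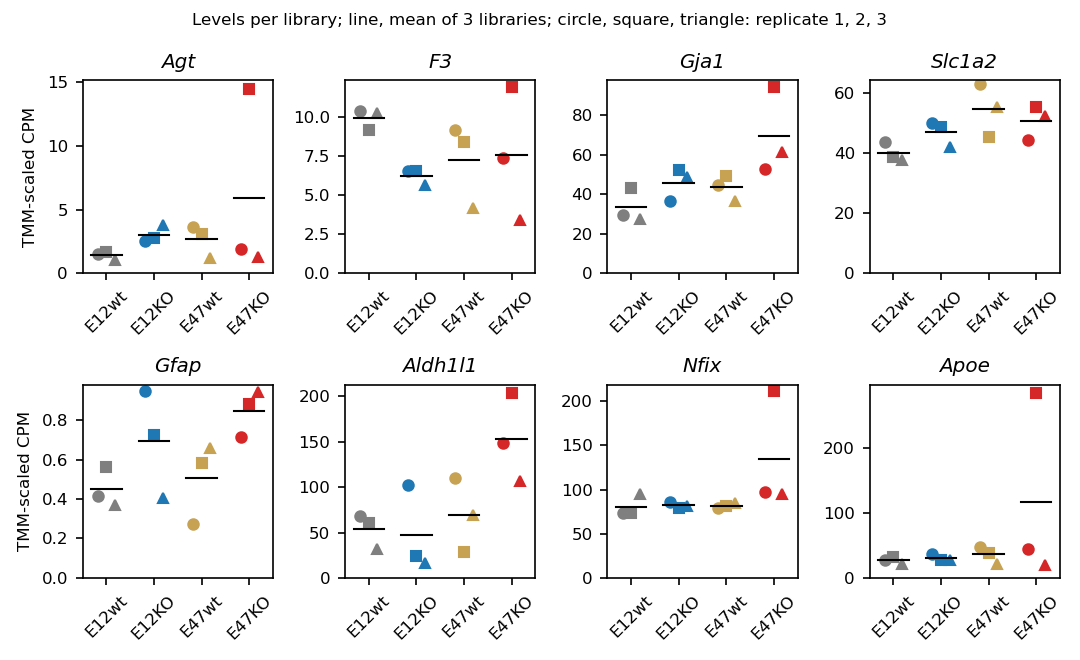
TMM-scaled CPM of 8 astrocyte genes in each library (points; shape marks the replicate) with the mean of each group of 3 libraries (line), on linear axes from 0. Agt and F3 separate E12KO from E12wt without overlap, Gja1, Gfap and Nfix separate E47KO from E47wt without overlap, and E47KO replicate 2 stands far above the other libraries for Apoe (284 CPM) and Agt (14.46 CPM).

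F3, of the receptors at the cell surface, was called lower in the E12 knockout by DESeq2 and was not called by edgeR. F3 encodes tissue factor, the starter of blood coagulation, which astrocytes carry in the brain (ENSMUSG00000028128). It measured 10.3, 9.18 and 10.2 CPM in E12wt, 6.53, 6.53 and 5.63 in E12KO, 9.14, 8.39 and 4.15 in E47wt, and 7.35, 11.9 and 3.41 in E47KO. All 3 E12KO libraries lay below all 3 E12wt libraries, at a mean of 6.23 ± 0.517 against 9.92 ± 0.648 CPM (SD, n = 3 libraries each). The log2 fold change was −0.67 ± 0.12. In edgeR its unadjusted p was 0.000393 and its adjusted p 0.276, and in DESeq2 the adjusted p was 0.00134. The authors' deposited table gave a log2 fold change of −0.67 and an adjusted p of 0.00244. The E47wt libraries also lay below all E12wt libraries, with a log2 fold change of −0.46 ± 0.27, and their range included that of E12KO. In the E47 comparison the value was 0.06 ± 0.48, or −0.43 ± 0.42 without E47KO replicate 2. The knockout effects of the lines differed by 0.73 ± 0.53, with an unadjusted p of 0.194 and an adjusted p of 0.932 in edgeR, so that a difference between the lines was not shown. Leaving out E47KO replicate 2 gave 0.25 ± 0.45.

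Tril, an adaptor of Toll-like receptor signalling, measured 92.6, 90.3 and 91.2 CPM in E12wt, 91.5, 81.7 and 78.2 in E12KO, 107, 84.4 and 86.5 in E47wt, and 87.0, 125 and 96.2 in E47KO. The groups overlapped in both lines, and its log2 fold changes were −0.12 ± 0.07 and 0.15 ± 0.17. Ntsr2, a neurotensin receptor of astrocytes, measured 2.71, 2.55 and 3.08 CPM in E12wt, 3.16, 3.20 and 2.30 in E12KO, 2.63, 2.91 and 1.66 in E47wt, and 2.58, 8.28 and 2.28 in E47KO. The other 11 libraries spanned 1.66 to 3.20 CPM, and the E47 value of Ntsr2 went from 0.86 ± 0.53 to 0.02 ± 0.28 without E47KO replicate 2. Its E12 value was 0.06 ± 0.19. Gpr37l1, an orphan receptor of glia, ranged from 3.24 to 8.58 CPM and gave 0.14 ± 0.18 and 0.53 ± 0.34, the former turning to −0.03 without E12KO replicate 1.

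Nuclear factor I proteins are the transcription factors that start astrocyte genes in radial glia, and all 3 were well expressed. Nfib measured 362, 376 and 342 CPM in E12wt, 387, 425 and 363 in E12KO, 390.3, 386 and 322 in E47wt, and 375, 401 and 361 in E47KO. Nfia measured 164, 166 and 122 CPM in E12wt, 160.2, 188 and 180.4 in E12KO, 174, 164 and 144 in E47wt, and 157, 188 and 156 in E47KO. Both overlapped between knockout and wild type in each line, with log2 fold changes of 0.13 ± 0.08 and 0.05 ± 0.11 for Nfib and of 0.23 ± 0.12 and 0.06 ± 0.12 for Nfia. Nfix measured 73.4, 73.4 and 94.5 CPM in E12wt, 85.7, 79.5 and 81.4 in E12KO, 78.9, 81.6 and 84.7 in E47wt, and 97.1, 212 and 95.4 in E47KO. All E47KO libraries lay above all E47wt libraries, also when E47KO replicate 2 is set aside. The log2 fold change of Nfix in the E47 comparison was 0.72 ± 0.31 (unadjusted p 0.0489, adjusted p 0.971 in edgeR) and 0.23 ± 0.08 without that library. In the E12 comparison it was 0.04 ± 0.10, and the difference between the effects was 0.69 ± 0.35, or 0.21 ± 0.14 without E47KO replicate 2.

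As a set, the astrocyte genes had more positive than negative fold changes in both knockouts, and the size of this changed with single libraries. In the E12 comparison 21 of 31 had a positive log2 fold change and the median was 0.13, against 51.4% of all genes tested and a median of 0.00. No overlap between groups was seen for Agt and Dio2 (higher) and F3 (lower), 3 of 31 genes, against 13.6% of all genes. The median was 0.07 without E12wt replicate 3, with 19 of 31 genes positive, 0.02 without E12KO replicate 1, with 17 positive, and 0.20 without E12KO replicate 3. By role, the median was 0.32 for the identity genes, 0.16 for the secreted proteins, 0.13 for the enzymes, 0.13 for nuclear factor I, 0.11 for water transport, gap junctions and end-feet, 0.10 for glutamate and ion transport and −0.03 for the receptors. Without E12wt replicate 3 these became 0.14, 0.01, 0.02, 0.09, −0.14, 0.03 and −0.03 in the same order.

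In the E47 comparison 24 of 31 astrocyte genes were positive with a median of 0.25, against 49.0% of all genes tested and a median of −0.01. The groups did not overlap for Gfap, Gja1 and Nfix (all higher), 3 of 31, against 7.89% of all genes. Without E47KO replicate 2 the median was 0.01 and 18 of 31 were positive. Leaving out E47wt replicate 3 gave 0.11, leaving out E47KO replicate 3 gave 0.43, and a block for the replicate number, which pairs E47KO with E47wt libraries, gave 0.14. With that block Apoe had an E47 value of 0.81 ± 0.64, Agt 0.50 ± 0.63, Aqp4 1.03 ± 0.53, Ttyh1 0.48 ± 0.34, Cst3 0.60 ± 0.39 and S100b 0.12 ± 0.43. In the paired fit Gja1 and Aldh1l1 had unadjusted p-values under 0.05 in edgeR, and both had an adjusted p of 0.866. Nfix, with an unadjusted p under 0.05 in the unpaired fit, had 0.0513 in the paired fit of edgeR. By role, the 5 tested genes of water transport, gap junctions and end-feet had a median of 0.67, the 5 secreted proteins 0.90, the 4 identity genes 0.60 and the 4 receptors 0.34, whereas glutamate and ion transport stood at 0.01, the enzymes at 0.04 and nuclear factor I at 0.06. When E47KO replicate 2 was left out, the end-foot group had a median of 0.06, the secreted proteins −0.17, the identity genes 0.37, the receptors 0.00, transport −0.06, the enzymes −0.03 and nuclear factor I 0.01. For genes whose E47 value without that library is not given above, it was 0.11 for Gpr37l1, 0.14 for Clu, 0.23 for Hepacam, −0.22 for Atp1b2, −0.37 for Sparcl1, 0.17 for Acsbg1, 0.04 for Cd44, −0.01 for Tril and 0.10 for Slc4a4, and for Aldoc, Dio2, Glul, Nfia, Nfib, Slc1a2, Slc1a3 and Slc7a10 it lay between −0.18 and 0.07.

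The difference between the knockout effects (E47 minus E12) had a median of 0.22 over the 31 genes and of −0.06 when E47KO replicate 2 was left out. A fit with a term for sex gave 0.04. The mean of the effects was positive for 27 of 31 genes, against 50.0% of all genes, with a median of 0.18. Without E47KO replicate 2 the mean effect had 21 of 31 positive and a median of 0.06. Without E12wt replicate 3 the median was 0.12, without E47wt replicate 3 0.12 and without E47KO replicate 1 0.27. Without both E12wt replicate 3 and E47KO replicate 2, 17 of 31 were positive and the median was 0.04. These comparisons use the same libraries as the separate ones above and are no further evidence.

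The wild types of the lines, which are also the controls above, were compared with each other. Between E47wt and E12wt 24 of 31 astrocyte genes were higher in E47wt, against 48.5% of all genes, with a median of 0.09. Without E12wt replicate 3 the median was −0.02 with 15 of 31 positive, without E47wt replicate 1 it was 0.01 with 16, and without E47wt replicate 3 it was 0.19. Slc1a2 (higher) and F3 (lower) did not overlap between these groups, 2 of 31 genes, against 9.52% of all genes.

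**Figure D4:**
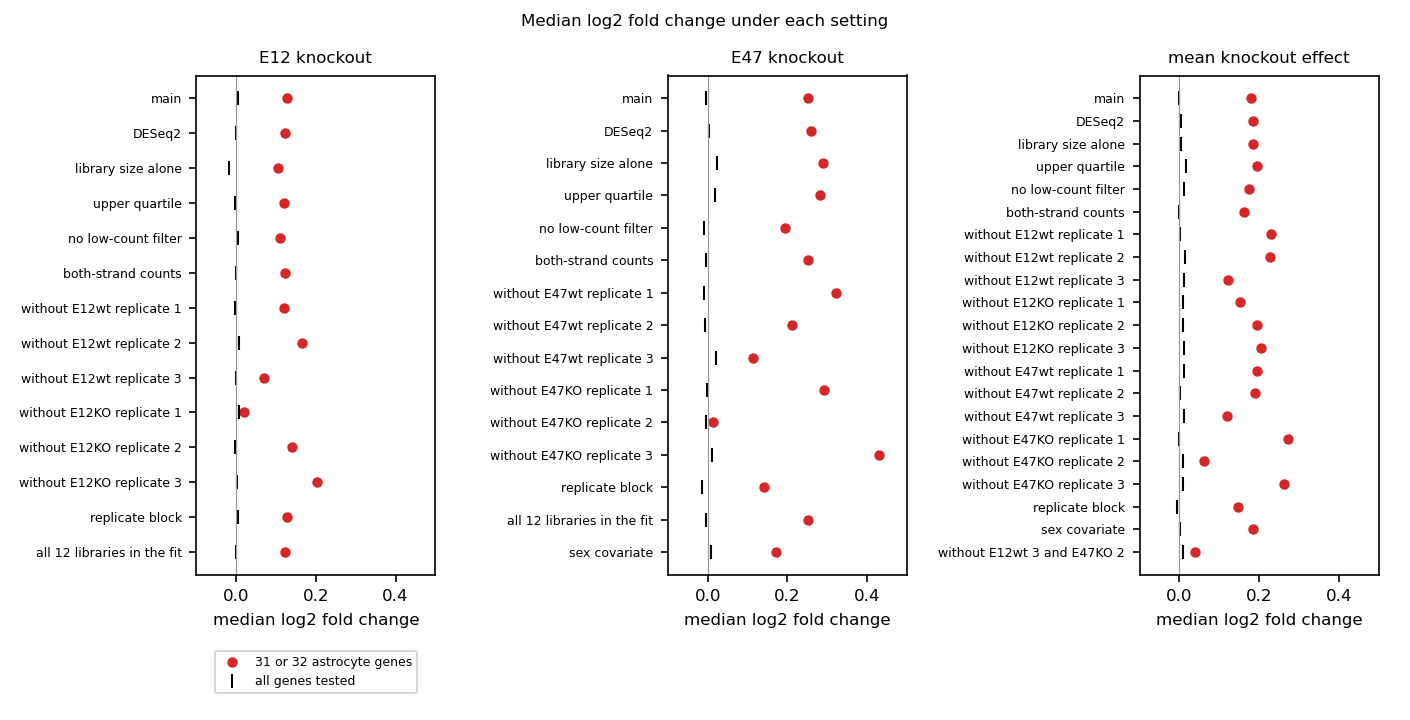
Median log2 fold change of the astrocyte genes (red points) and of all genes tested (black ticks) in the E12 comparison, the E47 comparison and the mean of both effects, as reported and under each alternative. The E47 median falls from 0.25 to 0.01 without E47KO replicate 2, and the medians of all genes stay near 0 throughout.

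E47KO replicate 2 was the highest of the 12 libraries for 21 of 31 astrocyte genes (67.7%, against 29.0% of all genes), and the lowest for 2, Cd44 and Acsbg1. The genes in which it stood out most were Apoe, Agt, Aqp4, Cst3 and Ttyh1, at 10.03, 7.48, 7.10, 3.60 and 3.31 times the median of the other 11 libraries, while Slc1a3, Glul, Nfib, Sparcl1, Gfap, Slc1a2, Slc4a4 and Dio2 stayed within the range of the others. In that library other gene lists stood high too. It was the highest for 20 of 29 further astrocyte genes tested and for 11 of 21 genes of gliogenic signalling. Nearer the share of all genes were the oligodendrocyte lineage (4 of 11, 36.4%), reactive astrocyte genes (5 of 15, 33.3%) and radial glia (3 of 9, 33.3%). For neuron genes it was the highest for 1 of 14. At the other end, E12wt replicate 3 was the lowest of the 12 for 10 of 31 astrocyte genes (32.3%, against 10.7% of all genes). Against 11.9% of all genes, that library was the highest for 4 of 11 oligodendrocyte lineage genes tested and 6 of 14 neuron genes. It was the lowest for 0 in both lists. E47wt replicate 3 was the lowest for 6 of 31 astrocyte genes (19.4%, against 6.83% of all genes). It was the highest for 3 of 11 oligodendrocyte lineage genes and 4 of 14 neuron genes, against 6.79% of all genes. A knockout library, E47KO replicate 3, was likewise the lowest for 6 of 31 astrocyte genes (19.4%, against 11.3% of all genes). That library was the highest for 0 of 11 oligodendrocyte lineage genes and 0 of 14 neuron genes, against 12.1% of all genes. In bulk RNA fewer cells of a type and less RNA per cell cannot be told apart, and what sets these libraries apart was not tested.

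**Figure D5:**
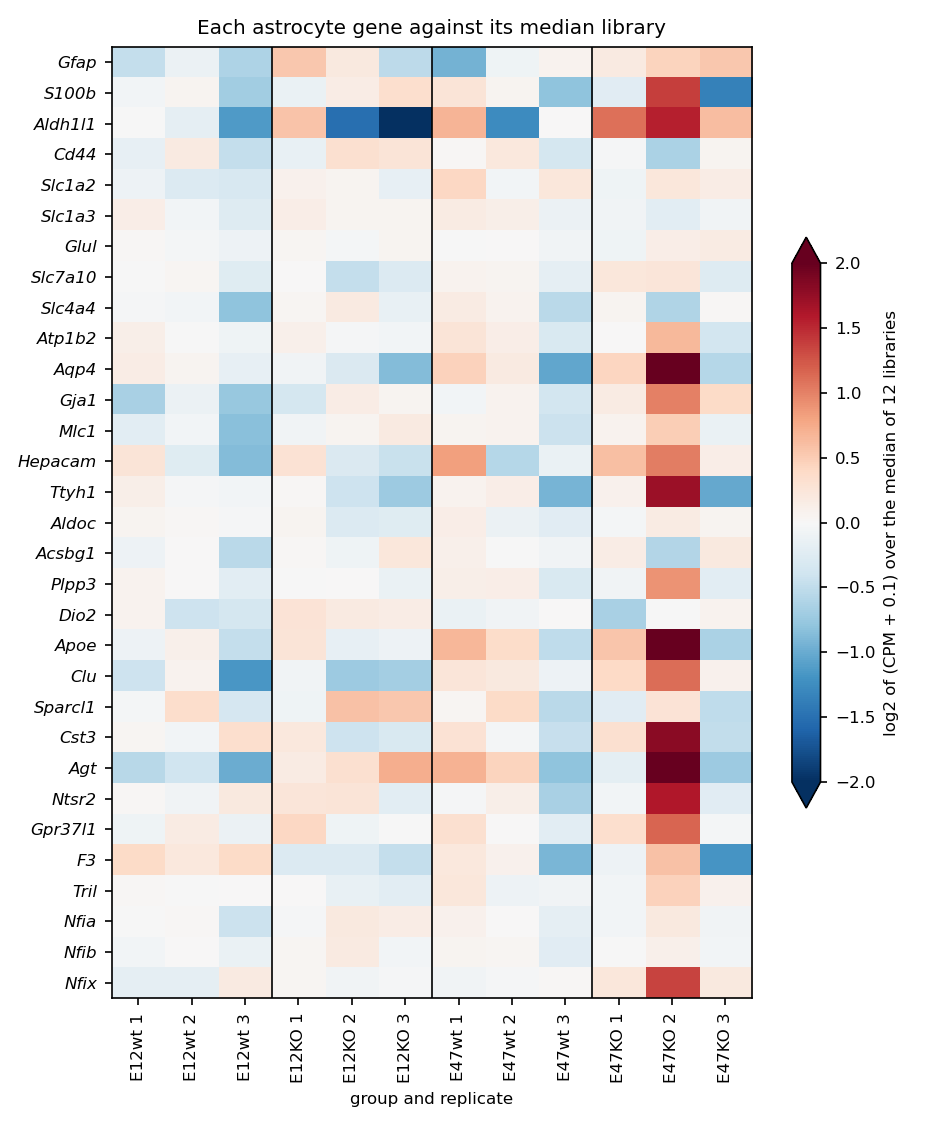
Log2 ratio of each library's CPM (plus 0.1) to the median of the 12 libraries, for the 31 tested astrocyte genes (rows, in role order) and the 12 libraries (columns, with lines between groups); red is above and blue below the median, and the colour scale ends at 2 on either side. The column of E47KO replicate 2 is red for most rows, that of E12wt replicate 3 is mostly blue, and Aldh1l1 varies within every group.

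Markers of other cells give the setting of these levels. The 9 genes of radial glia and stem cells summed to 8892 to 10758 CPM in every library, led by Fabp7 (2501 to 3315 CPM) and Ptprz1 (2053 to 2805), and all 9 lay above the floor throughout. The sum of the 14 oligodendrocyte lineage genes was 969 to 1611 CPM, led by Olig1 (508 to 813) and Olig2 (259.6 to 459), with Mog and Mag at or under the floor in all 12 libraries. The sum of the 17 neuron genes was 1190 to 1535 CPM, led by Map2 (966 to 1253) and Gap43 (40.9 to 228), with Neurod2 at or under the floor. The 6 endothelial genes summed to 2.46 to 7.17 CPM, led by Kdr (1.27 to 5.12) and Tek (0.717 to 1.68), with Cdh5 and Cldn5 at or under the floor, the 9 microglial genes to 3.15 to 10.1 CPM, led by Cd68 (2.00 to 9.01) and P2ry12 (0.374 to 1.05), with Aif1 and Cx3cr1 at or under the floor, and the 10 genes of mesenchyme and meninges to 9.81 to 43.7 CPM. In the E12 knockout 0 of 11 tested oligodendrocyte lineage genes and 2 of 14 neuron genes had a positive log2 fold change, with medians of −0.59 and −0.32, and in the E47 knockout 6 of 11 and 1 of 14, with medians of 0.06 and −0.26. Without E12wt replicate 3 the E12 medians were −0.27 and −0.20, with 4 of 11 and 2 of 14 positive, and without E47KO replicate 2 the E47 medians were −0.23 and −0.21, with 4 of 11 and 0 of 14. Whether these differences bear on the astrocyte genes was not tested.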

How the data were processed

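Stranded mRNA libraries were made from neural stem cells (12 libraries); the submitters' processing notes name STAR 2.5, DESeq, DESeq2 and mm9. The authors deposited whole-number counts per gene for both strands, the sense strand and the opposite strand. Opposite-strand counts held 97.1 to 97.2% of strand-assigned reads and were used here. Rows that name no gene held 14.2 to 17.5% of the reads and were left out. The authors also deposited 1 table per line with normalized signal, log2 fold changes, a score (the fold change over its error) and p-values; each listed 28 of the 32 genes.

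Counts were tested in R 4.3.3 with edgeR 4.0.16: low-count filter by group, TMM, quasi-likelihood F test, two-sided, Benjamini-Hochberg over all genes tested. The fit of each line used the 6 libraries of that line; all 12 entered for the difference and the mean of the effects, and the 6 wild types for theirs. The SE is the fold change over the root of F; fitted fold changes use a prior count of 0.125. The fit was tested on simulated counts, in which 67, 67 and 66 genes were changed 1.5-fold, 2-fold and 4-fold in each line's setting. Of 1.5-fold changes it called 53.7% in the E12 setting and 4.48% in the E47 setting. Of 2-fold changes it called 71.6% and 55.2%, and of 4-fold changes 97.0% and 89.4%. It also called 17 and 10 unchanged genes. The simulation changed far more genes than were called in the data, which eases the adjusted p. No simulated library stood apart as E47KO replicate 2 does. The shares called may thus be too high for the data. A gene that was not called may therefore still have changed, in either line. DESeq2 1.42.0, other scalings, no filter, both-strand counts, a replicate block, a sex covariate and leaving out libraries were the alternatives. Python 3.11.15 and matplotlib 3.10.9 made the summaries and figures. Symbols came from GENCODE on GRCm38 by Ensembl ID, which named 32897 of 37620 IDs.

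All 32 genes are named. A value in every library is given for 7 defining markers, for the 2 highest by mean CPM in each role, for genes under an unadjusted p of 0.05 in any comparison, and for the largest fold change of each role in each line; from other lists, genes called by edgeR or else the 2 highest are named, with their range or all values. The genes and lists were chosen with earlier results of these data known. No 2 libraries of a group agree within sampling noise (chi-square over its degrees of freedom at least 12.9). Same-numbered E47wt and E47KO libraries deviated from their group means together, with correlations of 0.10, 0.23 and 0.45 across genes, the lowest just over the limit of 0.1 set for pairing, and no label says what a number marks. The pairing was uneven, since E47wt replicate 1 correlated more with E47KO replicate 2 (0.15) than with E47KO replicate 1 (0.10). The E47 values given are from the unpaired fit unless a block is named. The paired fit also called 0 astrocyte genes.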

Additional observations from a re-analysis of the deposited data

How the results depend on the processing

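No astrocyte gene was called by edgeR under any alternative in any comparison; DESeq2 called 2 in the E12 comparison, Agt (1.11, adjusted p 0.0262) and F3 (−0.67, adjusted p 0.00134). Genes of any kind called in the E12 comparison, 6 as reported, were 76 with DESeq2, 20 without the low-count filter, 2 with all 12 libraries in the fit and 2 to 10 when 1 library was left out. In the E47 comparison, 2 as reported, they were 10 with DESeq2, 1 with a sex covariate and 0 to 7 with 1 library left out. The difference of the effects gave 0, with DESeq2 1, and 0 to 1 with 1 library left out. The mean effect gave 4, with DESeq2 56, with a sex covariate 2, and 2 to 4 with 1 library left out. The wild types gave 0, and 7 with DESeq2. The median log2 fold change of the astrocyte genes ranged, with 1 library left out, from 0.02 to 0.20 in the E12 comparison, 0.01 to 0.43 in the E47 comparison, −0.06 to 0.35 for the difference (its lowest value, −0.062, without E47KO replicate 2), 0.06 to 0.27 for the mean effect and −0.02 to 0.19 between the wild types. Single astrocyte genes changed sign, uncalled, in 21 of 403 alternative fits in the E12 comparison, 26 of 434 in the E47 comparison, 35 of 620 for the difference, 35 of 620 for the mean and 33 of 372 between the wild types. With the replicate number as a block, the medians were 0.13, 0.14, 0.20, 0.15 and 0.07 in that order, and the block changed no call of an astrocyte gene. Between the wild types it raised the astrocyte genes with an unadjusted p under 0.05 in edgeR from 1 to 8, all higher in E47wt. The share of all genes under that limit with the block was not counted. Same-numbered E12wt and E47wt libraries correlated at 0.05, 0.26 and 0.28. In the E12 line same-numbered libraries correlated at 0.09, 0.06 and −0.01, so the numbers were not read as pairs there. Depth limits Gfap (10 to 53 reads per library) and Gjb6 (0 to 2).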

Other observations

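Further genes of the astrocyte programme were counted in lists apart from the 32. Of 30 other astrocyte genes, led by Ednrb, an endothelin receptor, and Ntrk2, the receptor of BDNF, 15 of 28 tested had a positive log2 fold change in the E12 comparison, with a median of 0.04, and 22 of 29 in the E47 comparison, with a median of 0.30. The E47 median without E47KO replicate 2 was −0.01, with 14 of 29 positive. Neither edgeR nor DESeq2 called any of them, and 5 and 1 had an unadjusted p under 0.05 in edgeR, a limit that 8.96% of all genes passed in the E12 comparison and 2.19% in the E47 comparison. Ednrb measured 496, 497 and 383 CPM in E12wt, 463, 474 and 368 in E12KO, 539, 534 and 320.1 in E47wt, and 458, 1289 and 348 in E47KO. As with Apoe, E47KO replicate 2 stood above all other libraries. Ntrk2 measured 475, 506 and 446 CPM in E12wt, 476, 499 and 479 in E12KO, 535, 527 and 396 in E47wt, and 477, 889 and 406 in E47KO, with the same library on top.

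The 21 genes of gliogenic signalling (JAK-STAT, BMP, Notch and their targets), led by the Notch target Hes5 and the DNA methyltransferase Dnmt1, had 11 of 20 tested positive in the E12 comparison (median 0.02) and 12 of 20 in the E47 comparison (median 0.13). With that library left out the E47 median was −0.06, with 7 of 21 positive. edgeR called 0 of them, with 3 and 0 under an unadjusted p of 0.05, and DESeq2 called 1 in the E12 comparison, Id2, an inhibitor of E proteins, and 0 in the E47 comparison. Id2 measured 59.1, 58.9 and 63.2 CPM in E12wt, 47.9, 41.3 and 42.5 in E12KO, 66.4, 61.0 and 38.9 in E47wt, and 47.2, 74.1 and 21.5 in E47KO, and its log2 fold change in the E12 comparison was −0.45 ± 0.08 with an adjusted p of 0.223 in edgeR. Hes5 measured 366, 365 and 393 CPM in E12wt, 426, 291 and 380.0 in E12KO, 409, 357 and 359 in E47wt, and 496, 962 and 363 in E47KO. Dnmt1 measured 291, 329 and 306 CPM in E12wt, 321, 312 and 325 in E12KO, 293, 302 and 367 in E47wt, and 281, 160.2 and 407 in E47KO. E47KO replicate 2 was the highest library for Hes5 and the lowest for Dnmt1. Of 21 genes of reactive astrocytes, led by Fkbp5 (36.7 to 105 CPM) and Cd109 (21.7 to 43.1 CPM), 5 of 13 tested were positive in the E12 comparison and 4 of 12 in the E47 comparison, with medians of −0.10 and −0.09 and 0 called by edgeR, where 3 and 0 had an unadjusted p under 0.05. DESeq2 called Cd109 in the E12 comparison, where edgeR gave a log2 fold change of 0.62 ± 0.12 and an adjusted p of 0.356, and 0 in the E47 comparison. Lcn2, a marker of reactive astrocytes, was at or under the floor of 3 reads in all 12 libraries.

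Of the genes of mesenchyme and meninges, edgeR called Col1a1, Col1a2 and Bgn in the E12 comparison, all from levels of at most 6.92 CPM in any library. Col1a1, a chain of collagen I, measured 3.50, 3.87 and 3.98 CPM in E12wt, 0.996, 0.975 and 1.19 in E12KO, 6.92, 1.03 and 0.724 in E47wt, and 1.69, 1.43 and 0.978 in E47KO, with a log2 fold change of −1.83 ± 0.18 and an adjusted p of 0.0105 in edgeR. Col1a2, the other chain, measured 1.68, 2.79 and 1.62 CPM in E12wt, 0.0249, 0.0750 and 0.0475 in E12KO, 3.94, 0.0430 and 0.0852 in E47wt, and 0, 0.0828 and 0.160 in E47KO, with an adjusted p of 0.00433 in edgeR and no fold change given, since E12KO lay near the floor of 3 reads. Bgn, a proteoglycan of the matrix, measured 2.17, 2.64 and 1.76 CPM in E12wt, 0.174, 0.225 and 0.190 in E12KO, 2.71, 0.237 and 0.362 in E47wt, and 0.119, 1.02 and 0.516 in E47KO, with a log2 fold change of −3.45 ± 0.28 and an adjusted p of 0.00433 in edgeR. Replicate 1 of E47wt was the highest library for all 3. In the lists of radial glia, oligodendrocyte lineage, neurons, endothelium and microglia edgeR called 0 genes in either knockout comparison. In that order, 2 of 9, 4 of 11, 5 of 14, 1 of 3 and 0 of 3 tested genes had an unadjusted p under 0.05 in the E12 comparison, against 8.96% of all genes, and 0 of 9, 0 of 11, 2 of 14, 0 of 3 and 0 of 2 in the E47 comparison, against 2.19%. Of these lists DESeq2 called 1 gene, the neurofilament gene Nefm, in the E12 comparison, where edgeR gave a log2 fold change of −0.57 ± 0.13 and an adjusted p of 0.468. Id2, Cd109 and Nefm are named because DESeq2 called them, after their values were seen.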
